A study of Mus musculus with 6 samples.

Results

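T cell receptor gene segments are the V (variable), D (diversity), J (joining) and C (constant) genes of the alpha, beta, gamma and delta loci. They were taken by name from a table of RPKM values (reads scaled to gene length in kilobases and to library depth) and from a table of allele-resolved read counts: 258 of the 49671 genes in the tables carry such a name. The alpha locus gave 128 V, 60 J and 1 C gene, and the beta locus 35 V, 2 D, 14 J and 2 C genes. The delta locus gave 6 V, 2 D, 2 J and 1 C gene, and the gamma locus 1 V and 4 J genes, because the gamma constant genes and most gamma V genes are entered in the tables under another name (Tcrg-) and are described beside them.

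The RNA came from CD3+ T cells of the spleen of female F1 mus x cast mice. Their mothers were C57BL/6 (mus) carrying a heterozygous Xist deletion, their fathers M. m. castaneus (cast), and both groups share this genotype. The unstimulated group (day 0, 3 libraries) was collected directly after isolation on enrichment columns. The stimulated group (day 2, 3 libraries) was cultured for 48 h with 1 µg/ml plate-bound anti-CD3 and 10 µg/ml soluble anti-CD28. The labels call the libraries biological replicates without naming animals. Age is not given in the sources used here. The enriched cells are a mixture of clones and subsets, so a change in the share of cells with a given receptor and a change of RNA per cell cannot be told apart in any result below.

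An alpha beta receptor is assembled in the thymus when RAG1 and RAG2 cut beside V, D and J segments and repair enzymes join them. The joined V(D)J exon is then spliced to the constant exons. Alpha and delta segments share 1 locus, with the delta D, J and C genes between the alpha V and alpha J clusters, and making a V-to-J alpha joint deletes the delta genes on that chromosome. Each T cell clone keeps its own joints, so the V and J RNA of a bulk population reports on many clones together, while nearly every alpha beta T cell uses the same alpha constant gene and 1 of the 2 beta constant genes.

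On the mm10 build with GENCODE M21 the alpha V genes span chr14:52427928-53977678, the delta V genes chr14:53881612-54149294, the delta constant gene Trdc chr14:54142851-54148868, the alpha J genes chr14:54155005-54218842 and Trac chr14:54220521-54224206. The beta V genes span chr6:40891229-41558452 and the beta D, J and C genes lie between 41533201 and 41548352 on the same chromosome. The gamma members lie in chr13:19210343-19342212. The annotation enters the segments as exon sequence. The libraries were made from total RNA, and reads from spliced and unspliced RNA were not told apart. They differ widely in annotated length: 11 to 16 bases for D genes, 29 to 72 bases for alpha J, 155 to 595 bases for alpha V and 935 bases for Trac. RPKM divides by that length, and a read that only overlaps a very short gene counts whole, so levels of D and J genes are compared below with themselves in the other group, or within 1 class.

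The shortest members show how little sequence carries some of the values. The 4 D genes, which encode the centre of the antigen-binding loop, are printed whole, 5′ to 3′, from GENCODE M21 transcripts:
Trbd1: gggacagggggc
Trbd2: gggactgggggggc
Trdd1: atggcatatca
Trdd2: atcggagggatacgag

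The J genes encode the end of that loop and the start of the last framework strand. The next set shows the 3 alpha J genes of the highest level (Traj14, Traj1 and Traj23), the 2 joined in the invariant alpha chains of natural killer T (NKT) and mucosal-associated invariant T (MAIT) cells (Traj18 and Traj33), the alpha J gene with the most unequal alleles (Traj3) and the 2 highest beta J genes. Capitals mark TTNGG followed by any 4 bases and GG, which cover codons for the Phe-Gly-X-Gly turn of a J gene:
Traj14: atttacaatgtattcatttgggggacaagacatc
Traj1: gtgtgcagatagctgctccatctttcctg
Traj23: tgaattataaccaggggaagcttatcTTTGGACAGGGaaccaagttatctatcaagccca
Traj18: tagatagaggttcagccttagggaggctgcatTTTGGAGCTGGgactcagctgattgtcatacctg
Traj33: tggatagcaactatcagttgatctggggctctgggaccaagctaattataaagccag
Traj3: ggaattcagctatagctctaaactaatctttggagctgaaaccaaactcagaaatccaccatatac
Trbj1-5: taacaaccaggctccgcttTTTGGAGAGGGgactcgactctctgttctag
Trbj1-4: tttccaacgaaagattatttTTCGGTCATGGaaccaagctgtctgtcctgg

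These letters, searched on the coding strand, stood in 46 of 60 alpha J genes, 11 of 14 beta J genes, 2 of 2 delta J genes and 0 of 4 gamma J genes, 73.8% of all J members. Traj14, Traj1, Traj33 and Traj3 do not hold them. Traj14, at 34 bases, and Traj1, at 29 bases, are shorter in the annotation than most alpha J genes, whose median is 61 bases, and both stand among the highest RPKM values of the class.

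V genes carry near their end the codon of the cysteine that opens the antigen-binding loop. The last 48 bases of V genes on which results below turn are given, with TGTGC in capitals where it lies in the last 30 bases, as it does in 130 of 170 V members (searched on the coding strand):
Trbv13-2: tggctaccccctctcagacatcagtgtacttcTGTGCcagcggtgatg
Trbv13-3: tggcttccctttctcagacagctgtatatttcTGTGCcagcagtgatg
Trbv12-2: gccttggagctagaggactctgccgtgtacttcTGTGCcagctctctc
Trbv1: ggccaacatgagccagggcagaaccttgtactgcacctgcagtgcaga
Trbv21: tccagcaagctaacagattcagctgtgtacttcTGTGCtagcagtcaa
Trav6-5: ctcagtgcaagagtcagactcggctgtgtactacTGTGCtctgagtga
Trav7d-3: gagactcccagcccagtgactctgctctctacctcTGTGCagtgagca
Trav8n-2: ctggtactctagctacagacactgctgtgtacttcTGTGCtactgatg

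Near-identical copies limit what some members can show. Of the alpha V genes, 73 are d or n copies, named after the large duplication of the alpha V cluster. Some 34 alpha V members share their whole transcript sequence with another member, and 6 have the same RPKM as another member in all 6 libraries, so the reads of such copies could not be told apart and their values are uncertain. Trbc1 and Trbc2 share their first 259 bases and 86.98% of aligned bases. Trbv13-2 and Trbv13-3 share 90.59%, and Trbv12-1 and Trbv12-2 share 88.31%.

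Depth was 9.61 M to 11.9 M allelic reads per unstimulated library and 14.9 M to 20.2 M per stimulated library, and autosomal cast shares were 49.3% to 49.4%. Markers of other cells were lower after stimulation. The summed RPKM of 17 B cell genes was 2804 to 4514 before and 138.4 to 249.8 after (16 of 17 called lower), and that of 17 myeloid genes 1269.7 to 3644 and 6.58 to 10.6 (17 of 17). That of 12 NK cell genes was 584.3 to 771.0 and 296.6 to 330.5 (11 of 12), and that of 10 erythroid and platelet genes 86.5 to 1366 and 2.38 to 15.5 (8 of 9 tested). The 19 T cell identity genes summed to 1506 to 1760 RPKM before and 1386 to 1438 after, with 4 of the 19 called higher and 9 lower. Among all genes tested 31.2% were called higher and 48.9% lower. The part of the shift in these cell markers in the results below was not tested.

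Members were lower as a whole after stimulation. Their summed RPKM stood at 9987, 9355 and 8843 before and at 3359, 3522 and 3566 after, and the groups lay far apart. Of all summed RPKM they made up 2.62% to 3.02% before and 0.953% to 1.03% after. In reads per M (RPKM times length), where short genes do not weigh more, the sum went from 1617 ± 140.4 (SD, n = 3) to 986.9 ± 23.2, a 1.64-fold lower mean.

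Differences of single genes were tested with limma on log2(RPKM + 1) over all 13288 genes that reached an RPKM of 1 in 3 or more libraries, and fold changes from it are on that scale, which understates low genes. Of the 258 members 201 passed this filter, 15 were listed at 0 in all libraries, and the rest lay below it. A gene could meet the filter by its 3 unstimulated libraries alone, and could then only be lower after stimulation. With unstimulated replicate 1 left out, 184 members passed and 144 were called lower, as were 40.8% of all genes. Of the 201 tested members 160 were called lower after stimulation (adjusted p under 0.05), as were 48.9% of all genes tested. In limma 0 members were called higher, and 0 at an unadjusted p under 0.05, where 31.2% of all genes were called. On the summed allelic counts edgeR and DESeq2 each called 3 higher (Trac, Trbv1 and Trbv2), where 35.8% and 28.5% of all genes were called. A fall of at least 2-fold was called for 107 members, against 24.4% of all genes. The median log2 change was -1.12 over the tested members and -0.24 over all genes tested.

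**Figure D1:**
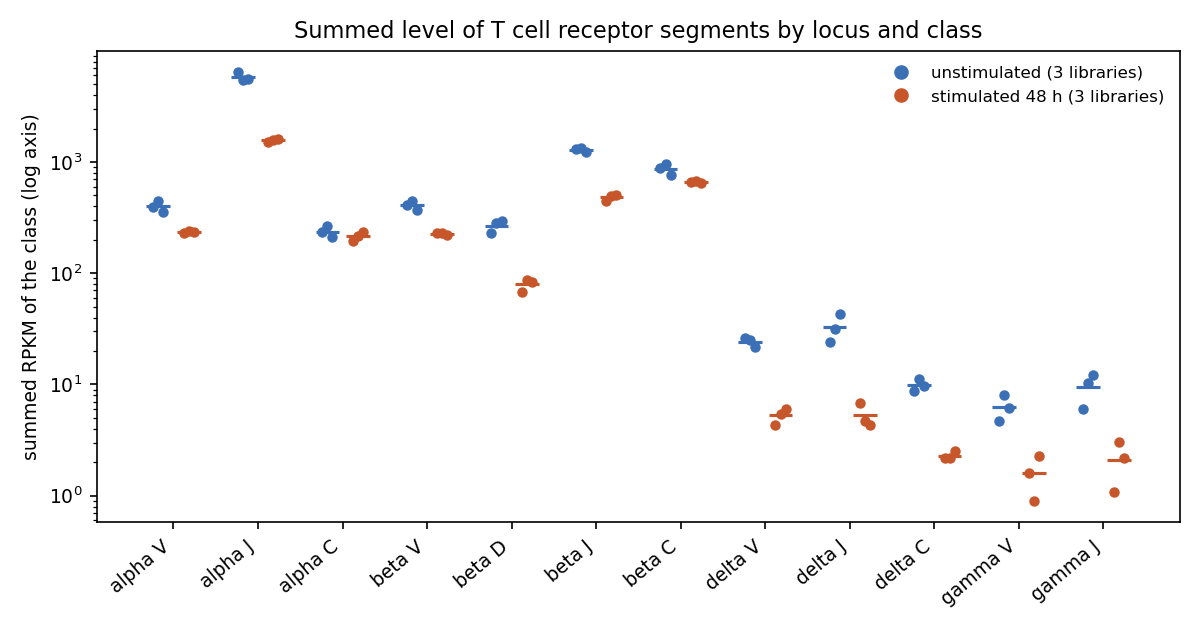
Summed RPKM (log axis) of each class of T cell receptor segment in the 3 unstimulated (blue) and 3 stimulated (orange) libraries, with horizontal bars at group means; delta D, at 0 in all stimulated libraries, is left out. Alpha J had means of 5813 and 1566, and the alpha constant gene 236.4 and 214.2 with overlapping groups.

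Constant genes are those to which the joined segments of a locus are spliced. Trac, the alpha constant gene, had 234.0, 264.1 and 211.0 RPKM before and 193.2, 215.2 and 234.2 after stimulation. The groups overlapped, and limma gave a log2 change of -0.14 ± 0.11 (SE, adjusted p = 0.277). That sign was not stable: it was 0.12 after median centring (adjusted p = 0.437), -0.49 after quantile normalisation (adjusted p = 0.0101) and 0.31 in edgeR on the summed allelic counts (adjusted p = 0.0303).

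Trbc1, the first beta constant gene, had 421.5, 447.1 and 350.8 RPKM before and 339.9, 340.5 and 326.2 after, groups that lay apart by a narrow gap. Its log2 change was -0.27 ± 0.10 (SE) at an adjusted p of 0.0497 in limma, which became 0.0537 with a replicate block. It was -0.01 (adjusted p = 0.962) after median centring, while edgeR on allelic counts gave 0.14 (adjusted p = 0.246). Leaving out any of 5 libraries also ended the call. Trbc2, its neighbour, fell from 470.8, 514.6 and 415.8 to 321.6, 333.6 and 325.1 RPKM, a log2 change of -0.51 ± 0.10 (SE, limma adjusted p = 0.0023); after median centring it was -0.25 (adjusted p = 0.114) and on allelic counts -0.05 (edgeR adjusted p = 0.714). Both calls thus held on the deposited scale and not on every other.

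Trdc, the delta constant gene, fell on every scale tried. It had 8.79, 11.2 and 9.79 RPKM before and 2.18, 2.17 and 2.55 after, a 4.32-fold lower mean (log2 change -1.72 ± 0.10 SE, limma). The log2 change was -1.46 after median centring, -1.39 after quantile normalisation and -1.66 on allelic counts. Relative to Trac it went from 4.21% ± 0.44 to 1.07% (SD, n = 3).

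J genes of the alpha locus had the lowest median change of the classes with more than 5 members. All 60 passed the filter, 59 were called lower, each of these by at least 2-fold, and the groups did not overlap for any of the 60 (50.7% of all genes had lower, non-overlapping groups). The 1 uncalled gene had a log2 change of -0.60. The median log2 change was -1.88, and the lowest -2.50. Summed alpha J RPKM was 6417, 5504 and 5517 before and 1514, 1566 and 1618 after, a 3.71-fold lower mean.

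The 3 highest alpha J genes moved alike. Traj14 had 249.7, 288.8 and 244.5 RPKM before and 77.6, 74.9 and 63.3 after. Traj1, the alpha J gene next to Trac, had 207.4, 184.2 and 264.9 and then 49.3, 61.1 and 54.9. Traj23 had 205.1, 187.8 and 188.5 and then 39.9, 54.5 and 62.1. In each the lowest unstimulated library lay above the highest stimulated one by a wide margin, and the log2 changes were -1.85, -1.96 and -1.90.

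Alpha J levels differed with position along the cluster in both groups. The 15 genes nearest Trac, from 1.68 kb to 17.3 kb before it, had a median of 135.8 RPKM before stimulation, the next 15 one of 144.4, the third 15 one of 88.7 and the 15 most distant, up to 65.4 kb away, one of 18.01. After stimulation the medians were 34.4, 39.2, 23.6 and 3.65 RPKM. The median log2 change was -1.86, -1.86, -1.87 and -1.996 in the same order, so these medians differed far less than the levels. Across the 60 genes, which share libraries and are not independent, Spearman's rho between level and distance was -0.80 before and -0.76 after, and between the levels of both groups 0.97.

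**Figure D2:**
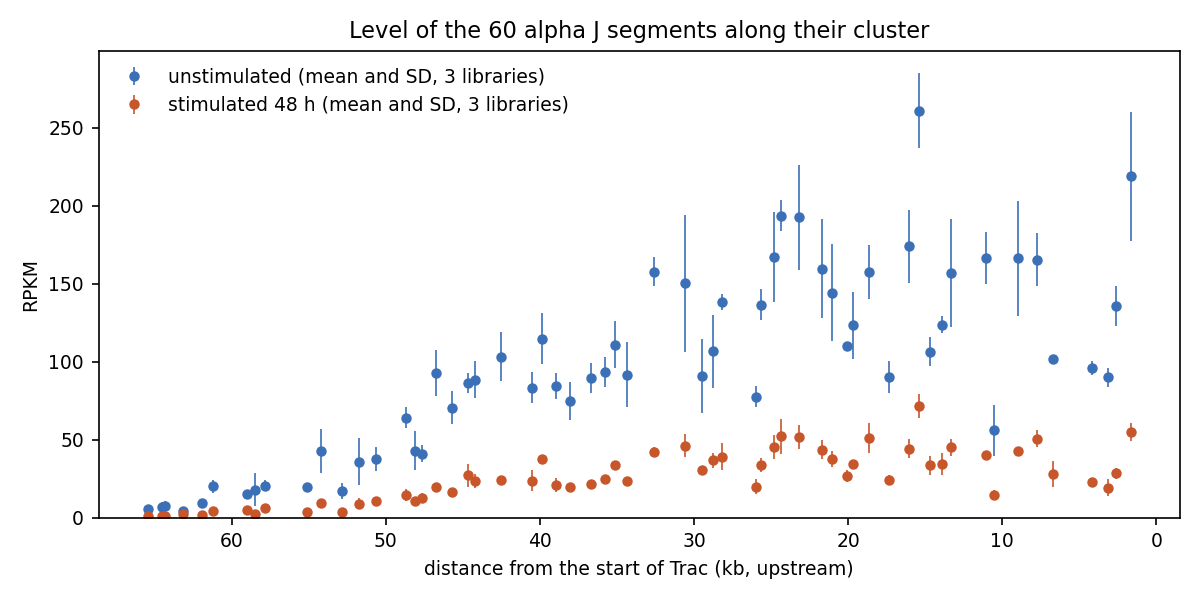
RPKM (mean and SD, n = 3 libraries per group) of the 60 alpha J genes against their distance upstream of Trac in kb. The 15 genes beyond 48.7 kb had the lowest median in both groups, and each gene had a lower mean after stimulation.

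Set against the constant gene, alpha J RNA was lower after stimulation as well. The ratio of summed alpha J to Trac RPKM was 27.4, 20.8 and 26.1 before and 7.84, 7.28 and 6.91 after. Since J RPKM is divided by very short lengths, only the change of this ratio can be read, not its size. Of all member reads, J genes held 25.0% ± 2.28 before and 11.7% after, C genes 54.8% ± 1.66 and 69.6%, and V genes 20.0% ± 0.64 and 18.7% (SD, n = 3).

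The alpha J fall held on the other scales tried: 59 genes were called lower after median centring and after quantile normalisation, and 50 of 51 genes tested by edgeR on the summed allelic counts, where the median log2 change was -1.50.

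Beta J genes, which lie in a cluster before each beta constant gene, fell as well: 14 of 14 were called lower, all by at least 2-fold. Of all genes tested 48.9% were called lower, and 24.4% by at least 2-fold. The median log2 change of beta J genes was -1.29 and the lowest -2.31. Their summed RPKM was 1311, 1344 and 1224 before and 446.9, 497.3 and 503.2 after. Trbj1-5, the highest, had 243.7, 269.4 and 221.5 RPKM and then 67.7, 85.7 and 89.7 (log2 change -1.59). Trbj1-4 had 189.8, 194.8 and 217.8 and then 62.9, 75.7 and 78.9 (log2 change -1.46). The ratio of summed beta J to the 2 beta constant genes went from 1.49 ± 0.10 to 0.73 (SD, n = 3). On allelic counts edgeR called 8 of the 14 lower, with a median of -0.88, where 38.5% of all genes were called lower.

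Both beta D genes fell in the RPKM fits. Trbd1 had 203.6, 232.4 and 252.2 RPKM before and 54.9, 67.7 and 72.5 after (log2 change -1.81 ± 0.13 SE), and Trbd2 had 28.4, 47.7 and 40.4 and then 12.6, 19.8 and 10.6 (log2 change -1.39 ± 0.26 SE). The deposited values resolve to whole numbers of reads, and Trbd1 rests on 80, 71 and 91 reads before and 30, 44 and 53 after, so its precision is that of small counts in spite of its high RPKM. Trbd2 rests on 13, 17 and 17 and then 8, 15 and 9 reads, and lost its call on allelic counts (log2 change -0.88, edgeR adjusted p = 0.117, and -0.92, DESeq2 adjusted p = 0.270).

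**Figure D3:**
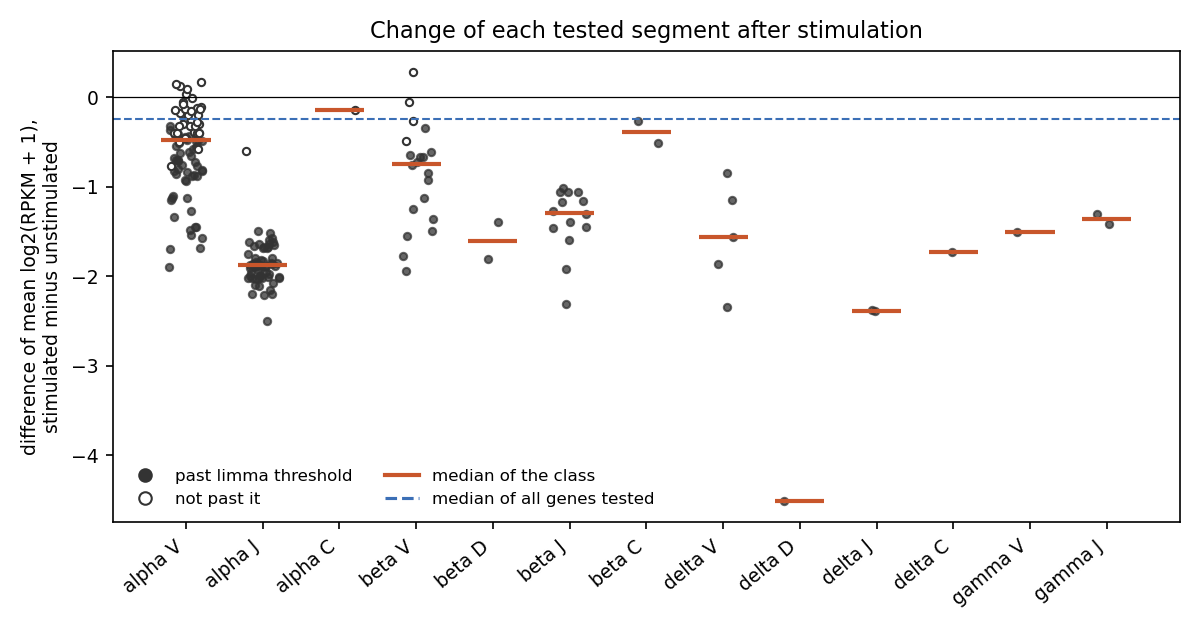
Difference of mean log2(RPKM + 1), stimulated minus unstimulated, for each of the 201 tested members by class, filled where past the limma threshold, with class medians (orange) and the median of all genes tested (dashed, -0.24). Alpha J values gather about -1.88, alpha V values spread from -1.90 to 0.17.

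Alpha V genes, which encode the part of the chain that reaches the MHC (major histocompatibility complex) molecule, varied more than J genes. Of 128 members 90 were tested and 55 (61.1%) called lower, where 48.9% of all genes tested were. Their median log2 change was -0.48, with a range from -1.90 to 0.17. Their summed RPKM was 395.0, 448.0 and 351.6 before and 231.3, 237.7 and 237.2 after. The summed ratio to Trac was 1.69, 1.70 and 1.67 before and 1.20, 1.10 and 1.01 after, groups well apart. How many single alpha V genes fell depended on the scale: 30 of 90 after median centring, 13 after quantile normalisation, and 6 of 49 tested by edgeR on the summed allelic counts. Of all genes tested, 39.2%, 36.7% and 38.5% were called lower in the same order. On these scales a lower call was thus less frequent among alpha V genes than among all genes.

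The largest alpha V falls were in Trav6-5 and Trav15-2-dv6-2. Trav6-5 had 7.90, 11.3 and 8.69 RPKM before and 1.99, 1.58 and 1.66 after, a log2 change of -1.90 ± 0.14 (SE, limma). Trav15-2-dv6-2, a segment that can join to alpha or delta J genes, had 3.80, 5.52 and 5.03 and then 0.594, 1.20 and 0.577 (log2 change -1.70 ± 0.18 SE). Of the 10 alpha V genes with dv in the name, which serve both chains, 9 were tested and 7 (77.8%) called lower, with a median of -0.82. The 81 other tested alpha V genes had 48 (59.3%) called lower and a median of -0.48. Of all genes tested 48.9% were called lower. The difference between the alpha V genes with and without dv in the name was not tested.

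Among the most abundant alpha V genes, Trav14-3 fell from 12.2, 13.4 and 12.9 RPKM to 3.95, 5.24 and 6.76 (log2 change -1.15 ± 0.16 SE). Trav7d-4 had 14.1, 14.1 and 10.4 and then 9.50, 10.8 and 9.83, groups that overlap, with a log2 change of -0.32 that limma put at an adjusted p of 0.0486, that was 0.25 on allelic counts (edgeR) and that lost the call when any of 5 libraries was left out. Trav12-2 had 10.2, 9.40 and 8.51 and then 6.65, 9.79 and 9.17, a log2 change of -0.13 (adjusted p = 0.416) whose sign turned after median centring (0.13).

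The invariant chains gave these values. Trav11 and Trav11d, the V genes of the NKT chain, stayed below the filter, with group means of 0.589 and 0.425 RPKM before and 0.264 and 0.195 after. Their partner Traj18 had 148.1, 107.7 and 114.4 RPKM and then 32.3, 35.5 and 35.3, a log2 change of -1.80 near the alpha J median. Traj33, of the MAIT chain, had 108.7, 97.1 and 127.2 and then 35.9, 34.7 and 31.1 (log2 change -1.68). It was not called by DESeq2 on the summed allelic counts (log2 change -1.80, adjusted p = 0.469). Trav1, the partner of Traj33, had 5.43, 6.88 and 7.26 and then 7.11, 5.72 and 7.35, overlapping groups. The log2 change of Trav1 was 0.04 (limma adjusted p = 0.787), and -0.07 without unstimulated replicate 1. After median centring Trav1 was called higher (log2 change 0.30, limma adjusted p = 0.0471). Zbtb16, the transcription factor of innate-like T cells, fell from 3.72 ± 0.12 to 0.497 ± 0.12 RPKM, and of 6 tested innate-like markers 4 fell and 2, Slamf1 and Tbx21, rose. The part of these cells in the segment values was not tested.

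Evenness of the alpha V genes was lower after stimulation. The effective number of alpha V genes (the exponential of the Shannon entropy of their RPKM shares) was 84.2, 88.8 and 82.2 before and 77.7, 73.7 and 72.9 after, without overlap. For alpha J it was 48.5, 47.9 and 48.2 and then 47.5, 47.3 and 46.3. The rank order of levels was largely kept: Spearman's rho between group means was 0.80 over the 90 tested alpha V genes and 0.83 over the 20 tested beta V genes, as a description over genes that share libraries.

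Beta V genes were lower in sum and differed in their shares. Of 35 members 20 were tested and 16 (80%) called lower, against 48.9% of all genes tested, with a median log2 change of -0.74. Their summed RPKM was 410.9, 445.2 and 367.7 before and 229.0, 228.2 and 222.3 after, and the ratio to the constant genes went from 0.468 ± 0.01 to 0.342 (SD, n = 3). After median centring 13 were called lower and 1 higher, and on allelic counts edgeR called 9 lower and 2 higher. Of all genes tested, these fits called 39.2% and 38.5% lower and 40.9% and 35.8% higher.

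The adjoining genes from Trbv12-1 to Trbv13-3 had a lower share after stimulation. Together they held 47.2%, 44.6% and 41.2% of summed beta V RPKM before and 29.5%, 28.9% and 26.5% after. Trbv12-2 fell most, from 34.4, 33.6 and 27.8 RPKM to 7.02, 8.06 and 7.68 (log2 change -1.94 ± 0.10 SE), and its share from 7.83% to 3.35%. Trbv12-1 had 9.58, 7.98 and 6.58 and then 1.98, 1.80 and 1.18 (log2 change -1.77 ± 0.17 SE).

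Trbv13-2, the most abundant beta V gene, had 72.1, 79.2 and 62.6 RPKM before and 31.6, 30.5 and 25.8 after (log2 change -1.25 ± 0.11 SE). Trbv13-3 had 44.2, 48.4 and 33.0 and then 14.6, 13.6 and 12.1 (log2 change -1.56 ± 0.15 SE). In all 4 genes each stimulated library lay below each unstimulated one.

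Trbv1, the gene at the far end of the beta V cluster, did not fall. It had 32.7, 32.4 and 23.0 RPKM before and 36.7, 37.2 and 32.5 after, overlapping groups with a log2 change of 0.28 ± 0.14 (SE, limma adjusted p = 0.111). Its share of summed beta V RPKM was 7.97%, 7.28% and 6.25% before and 16.0%, 16.3% and 14.6% after. It was called higher with a replicate block (adjusted p = 0.0352), after median centring (log2 change 0.54, adjusted p = 0.0266) and on allelic counts (1.78 in edgeR, adjusted p = 0.0007), where it rested on 57, 33 and 23 reads before and 151, 177 and 193 after.

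Those allelic reads are a small and changing part of the reads of Trbv1, which had 447, 344 and 288 reads behind its RPKM before and 697, 841 and 825 after. The cause of the gap between its changes on the 2 tables was not tested. Trbv2 was not called lower either (log2 change -0.06, limma adjusted p = 0.569) and was called higher on allelic counts (0.39, edgeR adjusted p = 0.0231). The share of Trbv2 in summed beta V RPKM went from 4.98% ± 0.26 to 8.57% ± 0.56 (SD, n = 3). Trbv31, which lies beyond the constant genes in reverse orientation, had 24.0, 24.1 and 21.6 RPKM and then 20.5, 16.0 and 18.03, a log2 change of -0.34 ± 0.10 (SE, adjusted p = 0.0150) that was -0.08 after median centring (adjusted p = 0.558) and 0.10 on allelic counts (edgeR adjusted p = 0.589).

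**Figure D4:**
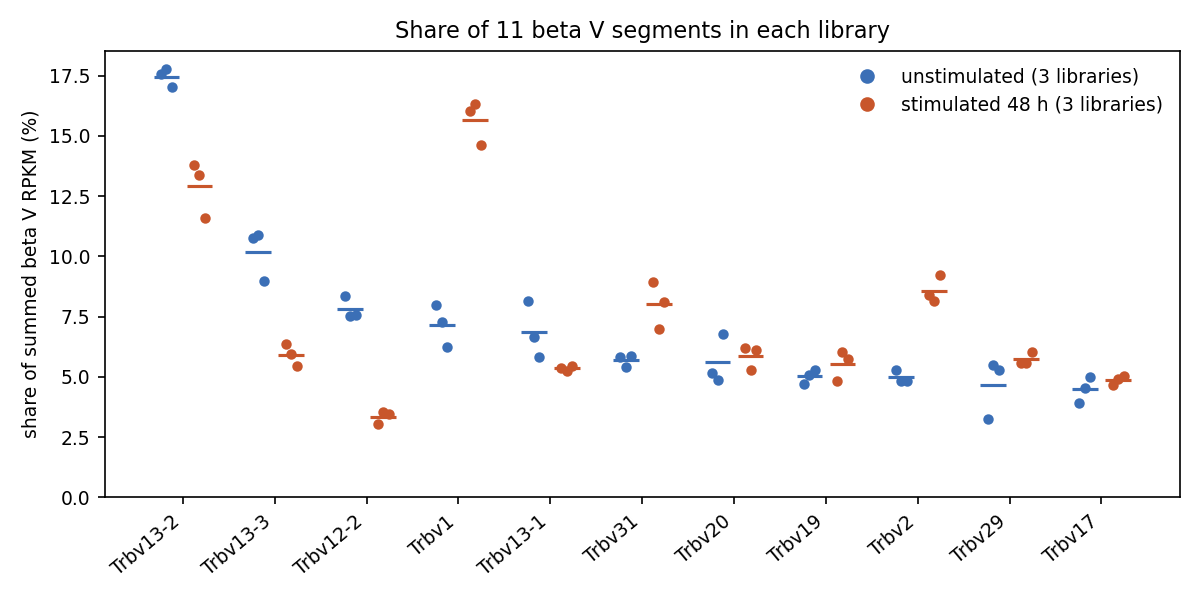
Share of summed beta V RPKM (%) of 11 beta V genes in each unstimulated (blue) and stimulated (orange) library, with group means as bars. Trbv13-1, Trbv13-2, Trbv13-3 and Trbv12-2 were lower in each stimulated library than in any unstimulated one. Trbv1, at 14.6% to 16.3% after stimulation, was higher in the same way, as were Trbv2, Trbv31 and Trbv29.

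In the RPKM fit as deposited, each delta member that was tested fell. Some of them, Trdd2 among these, met the filter by the unstimulated libraries alone and could only fall. All 5 tested of 6 delta V genes were called lower in that fit, with a median log2 change of -1.56. With any 1 unstimulated library left out, 3 delta V genes were tested and 3 called lower. Summed delta V RPKM was 26.1, 25.0 and 21.7 before and 4.31, 5.48 and 6.01 after. Trdv2-2, the highest, had 9.61, 7.62 and 8.54 RPKM and then 0.554, 0.977 and 1.20 (log2 change -2.34 ± 0.15 SE). Trdv1 had 5.26, 5.36 and 4.24 and then 2.28, 1.86 and 2.83 (log2 change -0.85 ± 0.14 SE), the smallest fall among the 5. Delta V genes called lower numbered 4 of 5 after quantile normalisation and 3 of 5 on allelic counts in both edgeR and DESeq2. Trdv1 lost its call in these, with adjusted p-values of 0.0628, 0.0953 and 0.156 in the same order.

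The delta D and J genes rest on few reads. Trdd2 had 24.8, 22.1 and 18.7 RPKM before, which is 13, 9 and 9 reads, and is listed at 0 in all 3 stimulated libraries; Trdd1 is listed at 0 in all 6. Trdj2 had 17.6, 24.6 and 27.1 RPKM and then 5.96, 4.69 and 1.39 (34, 37 and 48 reads and then 16, 15 and 5), and Trdj1 6.59, 6.93 and 16.3 and then 0.862, 0 and 2.90. Their log2 changes were -2.38 ± 0.40 and -2.39 ± 0.54 (SE). Trdj1 was not called by DESeq2 on the summed allelic counts (log2 change -1.37, adjusted p = 0.399). On the same counts edgeR tested 1 of the 2 delta J genes and called it lower.

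In the RPKM fit as deposited each gamma member that was tested fell too, and so did the gamma constant genes under the other name. Trgv2 had 4.66, 8.08 and 6.16 RPKM before and 1.61, 0.902 and 2.27 after (log2 change -1.50 ± 0.24 SE). Of 4 gamma J genes 2 were tested and called lower: Trgj4 had 2.50, 7.08 and 4.36 RPKM and then 0.720, 1.21 and 1.08, and Trgj1 2.04, 3.27 and 4.43 and then 0.366, 1.23 and 0.547, both on 11 reads or fewer in any library. On allelic counts neither was called by DESeq2 (adjusted p = 0.124 for Trgj4 and 0.290 for Trgj1).

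Of the gamma constant genes, Tcrg-C1 had 9.29, 13.8 and 10.98 RPKM and then 1.97, 2.90 and 2.68, Tcrg-C4 11.2, 15.5 and 12.02 and then 3.70, 4.76 and 3.90, Tcrg-C2 a mean of 9.46 and then 3.13, and Tcrg-C3 6.21 and then 1.71. No stimulated value of these 4 reached an unstimulated one. Of the gamma V genes under that name, Tcrg-V4 had 2.29, 6.08 and 4.06 RPKM and then 0.413, 0.867 and 0.887 (log2 change -1.52, limma adjusted p = 0.0021). Tcrg-V3 had 3.98, 3.23 and 1.98 and then 0.249, 0.261 and 0.791 (log2 change -1.49, limma adjusted p = 0.0009). Both met the filter by their unstimulated libraries alone. Tcrg-V5, Tcrg-V6 and Tcrg-V7 stayed below the filter.

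Markers of gamma delta T cells moved in both directions. Of 10 listed 4 were tested: Zbtb16, Blk and Maf fell and Il17a rose. Sox13, a defining factor of a gamma delta lineage, was at 0.368 to 0.638 RPKM before and 0.153 to 0.291 after, and Cd163l1, a scavenger receptor of these cells, at 0.440 to 0.663 and 0.0114 to 0.0479. The summed level of the list was 18.6 to 24.7 and then 8.25 to 12.8 RPKM. Blk is also a B cell kinase, and the NK and B cell lists given above fell in the same libraries. The part of any of these cells in the delta and gamma values was not tested.

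The partners of the receptor chains were measured too. Of 9 listed signalling partners and gamma constant genes 8 were tested and 7 called lower, with a median log2 change of -1.25. Among all genes tested 48.9% were called lower. Cd3g went from 34.3 ± 4.204 to 14.3 ± 1.06 RPKM, Cd3e from 75.2 ± 8.33 to 40.1 ± 2.63 and Cd247 (the zeta chain) from 40.8 ± 4.50 to 26.0 ± 0.58 (SD, n = 3). Cd3d was the uncalled one, at 81.3 ± 12.8 and 70.3 ± 1.41. Ptcra, the surrogate alpha chain of thymic precursors, was at or under 0.0863 RPKM in all libraries.

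Of 10 recombination genes 9 were tested, with 2 higher (the end-binding subunits Xrcc6 and Xrcc5) and 4 lower. Neither share exceeded that of all genes tested, of which 31.2% were called higher and 48.9% lower. Rag1, the recombinase, had 1.92, 2.06 and 3.72 RPKM before and is listed at 0 in all stimulated libraries, and Dntt, which adds bases at the joints, went from 1.53 ± 0.30 to 0.247 ± 0.07. Both are also expressed in developing B cells, and the B cell list moved in the same libraries.

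Of 12 factors known to bind the receptor loci 11 were tested, with 2 higher, Gata3 and Runx3, and 8 lower. Among all genes tested 31.2% were called higher and 48.9% lower. Tcf7 went from 290.1 ± 22.7 to 60.2 ± 1.28 RPKM, Lef1 from 65.6 ± 8.18 to 19.1 ± 1.91 and Runx1 from 15.8 ± 2.02 to 3.74 ± 0.39, while Gata3 went from 19.0 ± 2.17 to 73.8 ± 6.06 (SD, n = 3). Whether they bear on the segments was not tested.

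The F1 cross allows the mus and cast copies of each locus to be told apart. Of 258 members 46 had no allelic reads, 17 of these with a mean RPKM of at least 1, and 32 of the 73 d and n copies were among the 46. Members made up 0.228% to 0.277% of allelic reads before and 0.174% to 0.181% after. Allele bias was tested with edgeR in autosomal genes with at least 30 allelic reads in each group, which 137 members and 12470 genes in all reached. Reads were assigned by the authors against sequence that differs between the strains, and a preference of that step for 1 allele in single segments was not tested.

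V genes often differed between alleles. Of 68 tested V genes 34 (50%) were called in the unstimulated group, where 30.8% of all genes were: 23 had more cast reads (12.2% of all genes) and 11 more mus reads (18.5%). With a difference of at least 2-fold the count was 30 (44.1%), against 10.5% of all genes. In the stimulated group 36 (52.9%) were called, against 35.9%, of which 26 had more cast reads (15.4% of all genes) and 10 more mus reads (20.5%), and 33 (48.5%) were called at 2-fold, against 12.6%. Of 63 tested J genes 5 (7.94%) were called before and 4 (6.35%) after. The difference between the classes was not tested, and depth per gene differed between them.

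Calls held their direction between groups: 32 members were called in both groups, 19 towards cast and 13 towards mus in each, and 0 in opposite directions. How many of all genes were called in both groups was not counted, so this cannot be read as particular to the segments. Counts of calls depend on depth: with at least 100 reads in each group, 18 V genes were called at 2-fold before and 20 after.

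The most unequal members with at least 100 reads in each group were V genes on the cast side. Trbv21 had a cast share of 96.7% ± 2.94 before and 97.7% ± 3.90 after (SD, n = 3), Trav7d-3 95.2% and 94.4%, Trav3-1 90.5% and 89.3%, and Trav7-1 88.7% and 89.0%. On the mus side stood Traj3, at 17.1% ± 3.7 and 26.0% ± 7.4, Trav8n-2 at 19.4% and 17.9%, Trav5-4 at 19.5% and 23.2%, and Trav13-1 at 22.7% and 21.1%. All 8 passed the test in both groups, though Trav8n-2 and Trav13-1 each lost a call in the unstimulated group without unstimulated replicate 2. Trav8n-2 also lost that call without unstimulated replicate 1 (edgeR adjusted p = 0.0639), and its call in the stimulated group without stimulated replicate 3 (edgeR adjusted p = 0.0520). With fewer reads, Trav13-4-dv7, named after its values were seen, had 0 cast reads of 42 before and 0 of 63 after, which allows shares of up to 7.14% and 4.76%.

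The abundant Trbv13-2 had a cast share of 65.4% ± 2.1 before and 64.0% ± 4.6 after, and Trbv13-3 69.4% ± 1.9 and 63.5% ± 1.5. Trav1 had 85.8% and 87.8%. These were called towards cast in both groups.

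**Figure D5:**
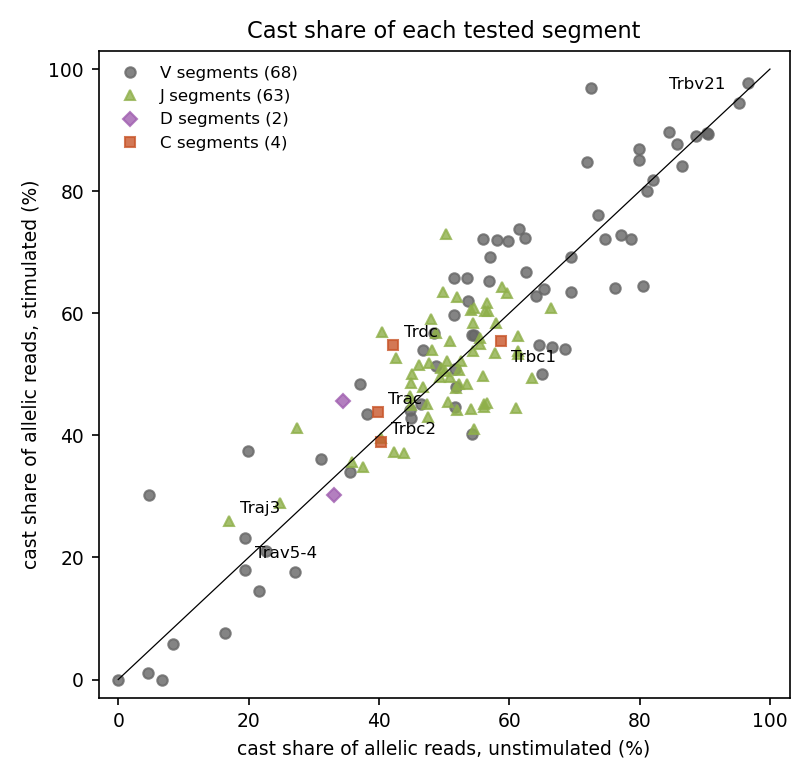
Mean cast share of allelic reads (%) of the 137 tested members in the unstimulated (x axis) and stimulated (y axis) group, by segment class, with the line of equal shares. V genes spread from 0 to above 95%, most J genes lie about the middle, and Trdc and Trac lie above the line.

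Summed over classes, alpha V had a cast share of 57.9% ± 2.47 before and 61.3% ± 1.38 after, and beta V 61.5% ± 0.55 and 60.5% ± 1.26 (SD, n = 3). Alpha J, at 51.1% ± 0.30 and 51.8% ± 3.10, and beta J, at 46.9% ± 2.12 and 48.8% ± 2.62, lay nearer to equal parts.

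The constant genes had uneven alleles in opposite senses. Trbc1 had a cast share of 58.7% ± 1.3 before and 55.4% ± 1.7 after, Trbc2 40.3% ± 1.8 and 38.9% ± 1.6, and both together 51.0% ± 1.08 and 49.0% ± 1.40. Trac stood at 39.8% ± 2.44 before and 43.8% ± 0.67 after. Each of the 3 was called in both groups.

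A change of allele share after stimulation was called for 2 of 137 members, where 10.9% of all genes tested were called, and 12 had an unadjusted p under 0.05. Trac had cast shares of 42.4%, 39.4% and 37.6% before, from 4596 to 5619 reads, and 43.8%, 44.4% and 43.0% after, from 6654 to 10348 reads. Exact 95% Clopper-Pearson intervals of single libraries ran from 41.1% to 43.8% in unstimulated replicate 1 and from 42.1% to 44.0% in stimulated replicate 3, so these libraries overlap in counting error while the group means differ. The log2 change of cast over mus was 0.23 ± 0.07 (SE, edgeR adjusted p = 0.0423), and the call was lost in DESeq2 (adjusted p = 0.0864), with a TMM factor for each allelic column (edgeR adjusted p = 0.0603), without unstimulated replicate 3 (log2 change 0.17, adjusted p = 0.15) and when each of 4 other libraries was left out.

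Trdc had cast shares of 41.3%, 42.3% and 43.1% before, from 727 to 812 reads, and 53.7%, 52.9% and 57.8% after, from 270 to 398 reads. The groups lay apart, and the log2 change was 0.74 ± 0.16 (SE, edgeR adjusted p = 0.0062), which stayed past the threshold in each alternative run. The fall of Trdc was thus larger on the mus allele: mus reads were 427, 423 and 462 before and 125, 145 and 168 after, cast reads 300, 310 and 350 and then 145, 163 and 230.

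Same-numbered libraries deviated together in allelic ratios, and with the replicate number as a block 4 members had a changed share: Trac and Trdc, Trbc1 with a log2 change of -0.20 (adjusted p = 0.0297) and Trbv12-2 with -0.90 (adjusted p = 0.0457). Without the block these last had adjusted p-values of 0.0702 and 0.0742 in edgeR. The cast share of Trbv12-2 was 68.6% ± 3.8 before and 54.1% ± 9.7 after.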

How the data were processed

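The authors deposited RPKM values for both alleles together and whole-number counts of reads assigned to the mus or the cast allele, per the file headers. Stranded total RNA libraries were made after removal of ribosomal RNA, per the labels' protocols, and the submitters' processing notes name STAR 2.7.1a, featureCounts and mm10. How reads were assigned to alleles, which annotation was used, whether multi-mapping reads were kept and whether counting used strand is not stated in the labels or headers used. Low RPKM values times GENCODE M21 length fell on whole read steps, within 0.05 steps, in 93.4% to 94.0% of cases, with 25.5 M to 60.9 M steps per library.

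A trend fit of limma 3.58.1 (R 4.3.3) tested log2(RPKM + 1), two-sided, and the quasi-likelihood test of edgeR 4.0.16, with a term per library, took the allelic counts. Adjusted p-values are Benjamini-Hochberg over all genes tested, threshold 0.05. Sums, shares and repertoire numbers carry no test. Intervals and limits from a count of 0 (3 counts) cover counting error only. Nothing names the animals, so p-values measure the spread between these samples.

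Same-numbered libraries of the 2 groups correlated in their deviations at 0.28, 0.30 and 0.18 for allelic ratios, over 9043 genes. The main allelic tests did not use this pairing, and a block by replicate number was run as an alternative. For RPKM the values were 0.01, 0.06 and 0.09.

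Named genes were the constant genes, the highest of each class, the largest called V falls (no V rise was called), the 4 highest and lowest cast shares, called share changes and the NKT and MAIT segments. Members, lists and rules were chosen with earlier results of these data known. Both tests were tested on simulated data. Alternatives were other pseudocounts, filters and scalings, a replicate block, edgeR and DESeq2 1.42.0 on allelic counts, and leaving out each library.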

Additional observations from a re-analysis of the deposited data

Results flagged for a closer look

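Both members whose allele share differed between the groups by the test of the difference itself stand out among the constant genes. Trdc changed by 0.74 on the log2 scale of cast over mus, and Trac by 0.23, both towards cast. Markers of B, myeloid and NK cells fell in the same libraries, and their part in these shifts was not tested.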

How the results depend on the processing

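Alpha J genes called lower numbered 59 in each RPKM fit run, except 56 of 56 tested with an RPKM of at least 5. Members called lower numbered 102 with an RPKM of at least 5, and 80 (edgeR) and 84 (DESeq2) on the summed allelic counts, where fewer members were tested, and 137 to 157 with 1 library left out. The members tested in the fits named first numbered 114, 147 (edgeR) and 181 (DESeq2). Those fits called 45.3%, 38.5% and 34.0% of all genes lower, and the fits with 1 library left out 39.5% to 47.7%. Members called higher numbered 4 after median centring, 5 after quantile normalisation, 1 with a replicate block, 3 in edgeR and 3 in DESeq2 on allelic counts, and 0 to 2 with 1 library left out. Of all genes, 40.9%, 40.6%, 30.5%, 35.8% and 28.5% were called higher in the same order, and 26.8% to 39.0% with 1 library left out. Either scaling and the block tested 201 members, and the fits with 1 library left out 184 to 201. Alpha V genes called lower numbered 9, 30, 13, 6 and 8 with an RPKM of at least 5, median centring, quantile normalisation, edgeR and DESeq2. They were of 17, 90, 90, 49 and 68 tested, and these fits called 45.3%, 39.2%, 36.7%, 38.5% and 34.0% of all genes lower. Beta V gave 9 and 10 and beta J 8 and 7 in edgeR and DESeq2 on allelic counts. The replicate block left 161 members lower and 1 of 2 beta C genes lower (Trbc1 was lost, adjusted p = 0.0537), and changed no other class's count of lower calls by over 1.5 times.

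With at least 100 allelic reads per group, mus-biased members numbered 10 before and 8 after stimulation, and V genes biased at least 2-fold 18 and 20. With 1 library left out, mus-biased members numbered 9 to 19 before, 2-fold biased V genes 18 to 31 before and 21 to 31 after, and cast-biased members 19 to 29 after. A changed share was called for 4 members with the allele by replicate number block, 1 in DESeq2 (Trdc), 2 with TMM factors for each allelic column (Trdc and Trbc1, edgeR adjusted p = 0.0476, while Trac lost its call), and 1 to 3 with 1 library left out.

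After median centring the folds of summed RPKM, stimulated over unstimulated, were 0.705 for alpha V, 0.322 for alpha J, 1.08 for alpha C, 0.662 for beta V, 0.355 for beta D, 0.446 for beta J, 0.904 for beta C, 0.259 for delta V and 0.277 for delta C. As deposited, alpha C had 0.906.

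Directions turned for Trac (0.12 after median centring, 0.31 in edgeR and 0.29 in DESeq2 on allelic counts), Trbc1 (0.14 and 0.12), Trbv31 (0.095 and 0.081), Trav7d-4 (0.25 and 0.24) and Trav12-2 (0.13 after median centring, 0.062 after quantile normalisation, 0.29 and 0.27 on allelic counts, -0.23 to 0.019 with 1 library left out). Trav1 ranged from -0.069 to 0.14 with 1 library left out, and was called higher after median centring (0.30, limma adjusted p = 0.0471). The cause was not tested. Of 878 values of named members under alternatives, 798 kept direction and side of the threshold. The median change of all genes was -0.24 as deposited, 0.02 after median centring and 0.04 after quantile normalisation. D genes, delta J and gamma J are limited by their few reads.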
